A study of Mus musculus with 18 samples.

Results

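Small nucleolar RNAs (snoRNAs) are short noncoding RNAs that work in the nucleolus as protein-bound particles. The genes described here are all those in the deposited table whose names start with Snord (box C/D class) or Snora (box H/ACA class). They number 111 of 38046 genes, with 74 in the C/D class and 37 in the H/ACA class, and each has 1 transcript in the table. Most box C/D snoRNAs guide 2′-O-methylation of ribosomal RNA and most box H/ACA snoRNAs guide pseudouridylation, each by pairing with its target. A few do not act as modification guides and are needed for cutting the ribosomal RNA precursor. In mammals most snoRNAs are cut out of the introns of host genes, many of which encode ribosomal proteins or noncoding transcripts with no other known product.

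The study measured RNA in mouse OPCs, or oligodendrocyte progenitors (proliferating precursors of the glia that make myelin), in 18 libraries from 6 clonal lines derived from primary neural stem cells. Control clones D7, D3 and E8 and the Thap1 null lines 3F, D6 and 7F were each sampled once at 3 stages. These were OPC (day 0, growth medium, PDGF-AA treatment), DIV2 and DIV4 (2 or 4 days in a differentiation medium containing the thyroid hormone T3), so that each of the 6 groups held 3 libraries. Thap1 encodes a zinc-finger transcription factor, and the comparison asks what its loss changes before and during differentiation. The making of the null lines is not given in the sources used here, so the Thap1 level, which ranged from 9.48 to 12.2 rescaled TPM in null OPCs and from 4.43 to 8.08 in control OPCs, checks no label. Each clone is 1 line. In all comparisons but that over all stages, p-values rest on a spread pooled over the 18 libraries. There the 3 libraries of a clone count as separate, and their pairing is not used. Only the comparison over all stages counts each clone once.

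The values are TPM, a transcript abundance corrected for transcript length that sums to the same total in every library, and sequencing depth is unknown. Protein-coding transcripts held 5.05% to 9% of the TPM in the 3 control OPC libraries and 19.1% to 38.8% in the other 15, so every library was divided by a factor computed from 14669 genes above 0 in all libraries, with snoRNA genes left out. These factors were 0.135 to 0.312 in control OPCs and 0.708 to 2.02 elsewhere, and all values below are such rescaled TPM. The OPC marker genes Pdgfra, Cspg4, Olig1, Olig2 and Sox10 were together at 526 to 797 in control OPCs and 370 to 489 in null OPCs. All 5 microglial markers were under 1 in each OPC library, whereas neuronal markers summed to 79.7 to 141 there. The libraries were made from total RNA after removal of ribosomal RNA, with no selection for small RNAs in the protocols. The C/D genes are 64 to 238 bases long (median 80) and the H/ACA genes 121 to 205 bases (median 132).

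Sequence features set the classes apart. The letters TGATGA, a form of the C box, were present in the first 20 bases of 47 of the 74 C/D genes (63.5%), of 0 of the 37 H/ACA genes and of 0.7% of 141733 GENCODE M21 mouse transcripts. The D box letters CTGA were in the last 20 bases of 72 C/D genes and 4 H/ACA genes, against 9.24% of all transcripts. The letters ACA, the last box of the H/ACA class, were in the last 10 bases of 35 H/ACA genes and 8 C/D genes, against 14.4% of all transcripts. Only the given strand was searched, matches of ACA can overlap one another (the last one is in capitals), and a match is a description of the letters. Below are 6 genes whose values the results turn on, from GENCODE M21 (GRCm38), 5′ to 3′ as DNA letters, with these motifs in capitals. Among the 111 genes, Snord104 is the most abundant of the C/D class and Snord118 the cleavage snoRNA with the clearest change. The other 4 were listed at 0 in every control OPC library.
Snord104: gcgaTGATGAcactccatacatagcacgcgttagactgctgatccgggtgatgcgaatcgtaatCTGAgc
Snord65: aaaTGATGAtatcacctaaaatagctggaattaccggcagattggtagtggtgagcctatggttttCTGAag
Snord118: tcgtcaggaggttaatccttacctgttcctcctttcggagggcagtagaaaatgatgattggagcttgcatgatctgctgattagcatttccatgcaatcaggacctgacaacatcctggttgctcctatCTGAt
Snora23: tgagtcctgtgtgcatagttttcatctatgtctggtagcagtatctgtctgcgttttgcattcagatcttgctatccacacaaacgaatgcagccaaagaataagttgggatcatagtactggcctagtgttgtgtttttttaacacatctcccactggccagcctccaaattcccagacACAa
Snora26: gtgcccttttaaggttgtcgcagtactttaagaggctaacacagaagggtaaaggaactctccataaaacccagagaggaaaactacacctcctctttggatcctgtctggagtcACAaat
Snora52: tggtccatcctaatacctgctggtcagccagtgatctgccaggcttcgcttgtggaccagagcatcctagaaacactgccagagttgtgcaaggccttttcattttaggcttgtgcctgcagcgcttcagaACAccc
Snord104 lies at chr11:106500993-106501062 and Snord118 at chr11:69073427-69073561, both on the plus strand and without a host gene on that strand. Snord65 lies at chr11:62604515-62604586 (plus strand) in an intron of the noncoding gene 2410006H16Rik, and Snora23 at chr7:110046364-110046547 (plus strand) in an intron of Ipo7, which encodes a nuclear import receptor. Snora26 at chr5:74093530-74093650 (plus strand) is covered by an exon in 3 of the 4 transcripts of the noncoding gene Dancr. Snora52 at chr7:141448803-141448939 (plus strand) is covered by an exon in 1 of the 6 transcripts of Rplp2, which encodes a ribosomal stalk protein.

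Of the 111 genes, 106 lie within a host gene on the same strand, and these hosts are 77 different genes. In 56 of them an exon of some annotated host transcript overlaps the snoRNA, and 50 are intronic in every host transcript. Hosts with ribosomal protein names (Rpl or Rps) number 24 and hold 32 of the snoRNA genes. Reads cannot be assigned uniquely where sequence is shared: 66 of the 111 genes share at least 10% of their 31-base words with another gene, and 31 do so with a gene other than the host. Values of those 66 genes are uncertain for this reason, and Snora73a, Snora73b, Snord22, Snora26, Snora52, Snora81 and Snord14d are among them.

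Abundance was concentrated in a few genes. In the C/D class Snord104, Snord17, Snord15b and Snord22 together held 43.5% of the class total averaged over the 18 libraries. In the H/ACA class Snora73a alone held 32.2%, and Snora73a, Snora73b, Snora74a and Snora78 together held 74%. At the other end, 10 genes were listed at 0 in all 18 libraries, 9 of them C/D genes and the other Snora35. The reason for these zeros was not tested. There were 20 genes above 0 in all 18. Length and mean abundance went weakly together across the 111 genes (Spearman's rho = 0.322, a description across genes of the same libraries).

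The number of genes listed at 0 differed more between control and null OPCs than at later stages. Among 74 C/D genes, 38, 36 and 54 were at 0 in control OPCs (clones D7, D3 and E8) and 19, 18 and 14 in null OPCs (3F, D6 and 7F). Among 37 H/ACA genes the counts were 13, 15 and 19 against 2, 3 and 3. At DIV2 the C/D counts were 18, 24 and 23 in control and 24, 25 and 19 in null, and at DIV4 they were 33, 38 and 32 in control and 25, 36 and 26 in null, so the ranges overlapped at both stages. The H/ACA counts at DIV4, 9, 14 and 12 in control and 7, 10 and 10 in null, also overlapped. The lowest value above 0 for a C/D gene was 6.5 to 14.5 in control OPC libraries and 1.84 to 4.82 in the other 15, so a level registered in null OPCs can be at 0 in control OPCs. For an H/ACA gene it was 3.85 to 8.79 and 0.996 to 8.06, with overlap. On the deposited scale the C/D values overlapped as well, at 1.95 to 2.42 in control OPCs and 1.76 to 3.00 in null OPCs. Some of the 10 most abundant genes of their class (Snora73b, Snord13 and Snord22) were themselves at 0 in control E8 OPCs, and a 0 here says only that the gene is listed at 0. The part of this difference in detection in the results below was not tested.

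**Figure D1:**
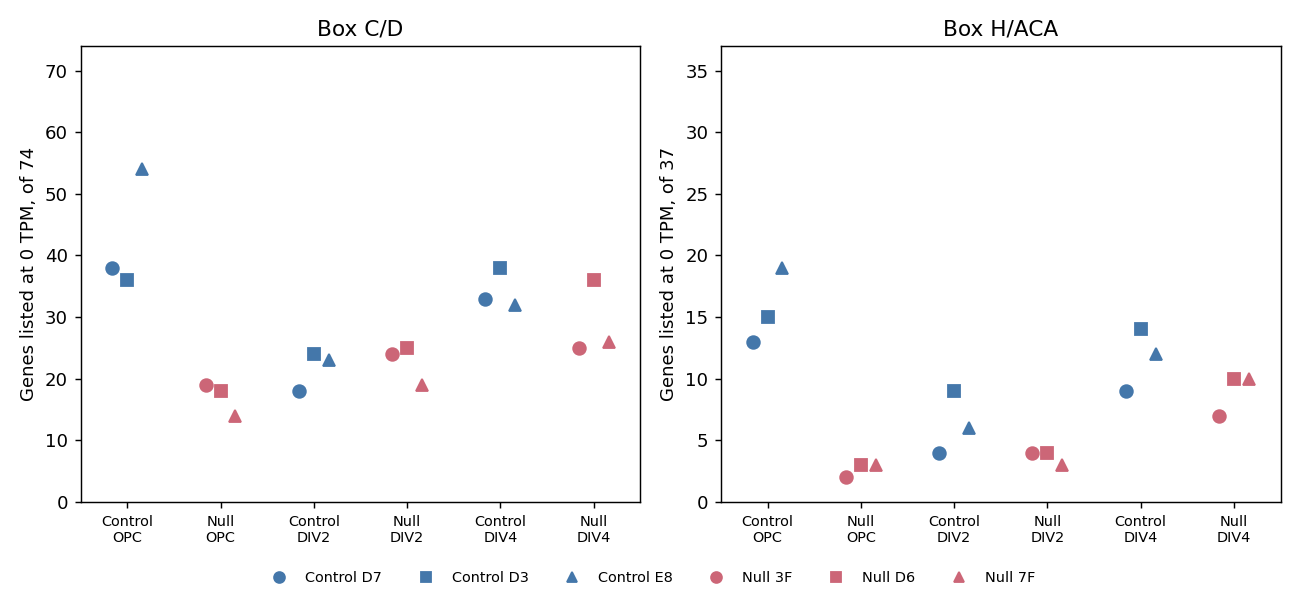
Number of box C/D genes (left, of 74) and box H/ACA genes (right, of 37) listed at 0 TPM in each library, 1 point per clone, with control in blue and Thap1 null in red. Control OPC libraries had 36 to 54 C/D genes and 13 to 19 H/ACA genes at 0, null OPC libraries 14 to 19 and 2 to 3.

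Summed over each class, snoRNA levels were higher in null than in control OPCs and, on the rescaled values, declined by DIV4. The C/D total was 1974, 1158 and 1179 in control OPCs and 2541, 4579.9 and 4021 in null OPCs, with means of 1437 ± 465 and 3714 ± 1054 (SD, n = 3 each). The H/ACA total was 2025, 2511 and 1004 in control OPCs and 3625, 5275 and 6033 in null OPCs, with means of 1847 ± 769 and 4978 ± 1231 (SD, n = 3 each). All 3 null OPC libraries lay above all 3 control OPC libraries in both classes. The log2 difference of the totals was 1.37 for C/D, with a pooled SD of 0.44 between clones, and 1.5 for H/ACA, with a pooled SD of 0.56. On the deposited scale these differences were 3.48 and 3.61, and with factors computed from the snoRNA genes themselves 0.21 and 0.34. These last factors centre the snoRNA genes on each other, so a small difference follows from how they are built.

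At DIV2 the totals were less far apart. The C/D total was 2137, 968 and 1599 in control and 2413, 2048 and 2179.9 in null, and the H/ACA total was 2999, 1069.9 and 2372 in control and 4185, 3033 and 2459.6 in null. The genotypes overlapped in both classes at this stage. At DIV4 the classes differed from each other in how far the genotypes were apart: the C/D total was 1206, 793 and 747 in control and 1402, 1014 and 1330.3 in null, with overlap, while the H/ACA total was 1294, 653 and 509 and 3197, 1456 and 2656, without overlap. The log2 differences at DIV4 were 0.47 for C/D and 1.61 for H/ACA, with pooled SDs of 0.32 and 0.65, and whether the classes differ was not tested. Within null clones the C/D total fell by 1.54 on the log2 scale from OPC to DIV4 and the H/ACA total by 1.07, with pooled SDs of 0.36 and 0.50. In control clones the declines were 0.64 and 1.19 (log2 differences of -0.64 and -1.19, pooled SDs 0.41 and 0.70). The control declines depend on the scaling: on the deposited scale both turned into rises, of 2.11 and 1.56, and with protein-coding factors the C/D difference was 0.065. The null declines depend on it too. With snoRNA factors the null H/ACA decline turned into a rise and the null C/D decline was smaller. With quantile normalization the null H/ACA decline was also smaller.

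**Figure D2:**
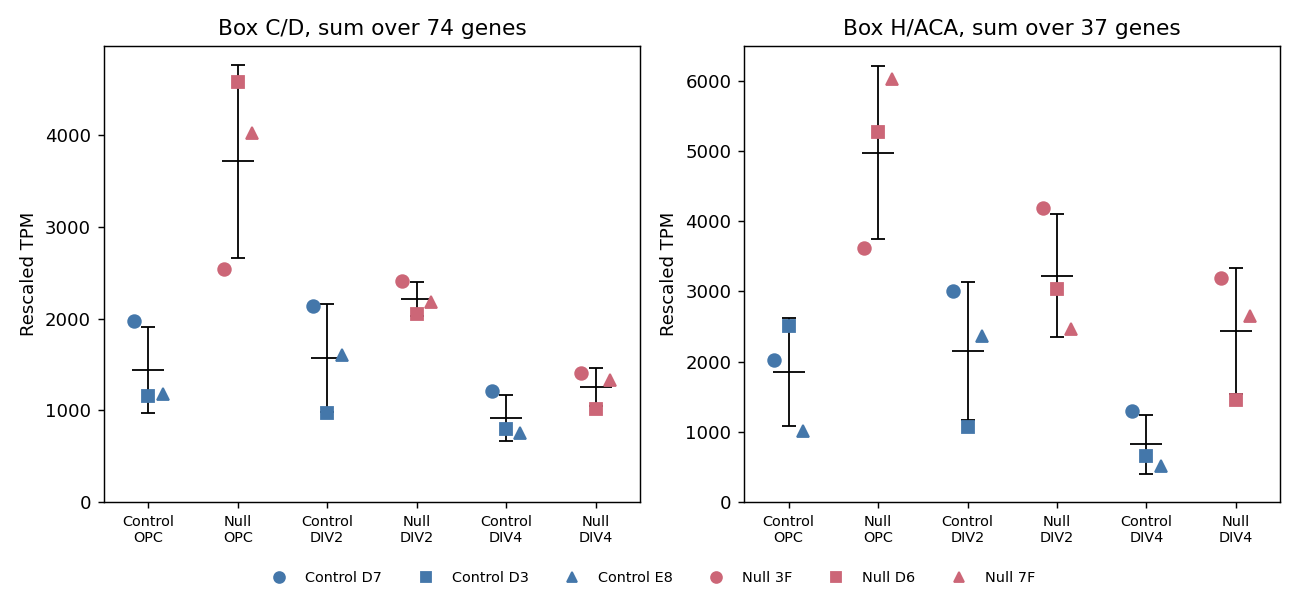
Sum of rescaled TPM over the 74 box C/D genes (left) and 37 box H/ACA genes (right) in each of 18 libraries, by group, with the group mean and SD as a bar (n = 3). In OPCs all 3 null libraries sit above all 3 control libraries in both panels, and at DIV4 they do so for H/ACA and not for C/D.

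Other short nuclear RNAs in the same libraries are given beside the snoRNAs. The summed level of 8 genes named Rnu and a digit, most of them for spliceosomal U RNAs, was 2277 to 7870.1 in control OPCs and 23667 to 35792 in null OPCs, without overlap. Rnu1a1, a U1 RNA of the spliceosome, made up most of that sum, with a mean of 5298 in control and 29640 in null OPCs (log2 change 2.64, adjusted p = 0.016). The set also holds Rnu3a, a U3 RNA and itself a box C/D snoRNA, with a mean of 49.3 in control and 1471 in null OPCs (log2 change 5.12, adjusted p = 0.000628). Of 7 tested genes of the set 6 were called higher in null OPCs, against 5.95% of all tested genes. Rmrp, the RNA of a ribonuclease that processes ribosomal RNA precursors, ranged from 4485 to 12512 in control OPCs and from 13604 to 23074 in null OPCs, also without overlap but not called (log2 change 1.22, adjusted p = 0.105). Rn7sk, which holds back transcription elongation, overlapped (64940.1 to 160201 against 64084 to 114385), as did Rpph1, the RNA of ribonuclease P (7549 to 26830.3 against 8547 to 13285). The 9 Scarna genes, relatives of snoRNAs that act in Cajal bodies, overlapped as well in their sum (908 to 4372 against 1534 to 3178). Scarna10 and Scarna13 made up most of that sum, and of the single genes Scarna3a (log2 change 1.80, adjusted p = 0.0212) and Scarna8 (2.98, adjusted p = 0.0073) were called higher in null OPCs. These values stand beside the snoRNA totals, and a shared technical or biological part in them was not tested.

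Gene by gene, snoRNAs that passed the test between genotypes in OPCs were all higher in null clones. Genes with a mean of at least 1 rescaled TPM were tested with limma on log2(rescaled TPM + 1), and a gene was called at a Benjamini-Hochberg adjusted p under 0.05. Of the 111 genes 93 entered (58 C/D and 35 H/ACA). Just inside the minimum were Snord1b, Snord68 and Snord34 (means of 1.02, 1.08 and 1.20), and just outside were Snord12, Snord57 and Snord23 (0.982, 0.766 and 0.76). In OPCs 23 of 93 were called higher in null and 0 lower, against 5.95% of 12468 genes called higher and 5.25% called lower. There were 13 C/D and 10 H/ACA genes among them. The median log2 change was 2.18 over the 93 genes and 0.06 over all tested genes. Without the control E8 OPC library 20 genes were called, all higher, with a median of 1.53. Of 12392 genes tested without that library, 416 were called higher and 462 lower. Over all 111 genes, tested or not, the group mean was higher in null OPCs for 82, lower for 16 and equal for 13. The minimum favours genes high in 1 group: 12 of the 23 called genes were listed at 0 in all 3 control OPC libraries, and among the 75 tested genes with a mean of at least 1 in both groups 11 were called, all higher, with a median of 1.86.

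Among the cleavage snoRNAs named Snord or Snora, Snord118 rose most clearly in null OPCs. Rnu3a, with a larger log2 change of 5.12, is outside these names. Snord118 is the U8 snoRNA, which is needed for maturation of the large-subunit ribosomal RNAs and whose human gene is mutated in a leukoencephalopathy with calcifications and cysts. Its level was 45, 30.8 and 17.6 in control D7, D3 and E8 OPCs and 174, 318 and 236 in null 3F, D6 and 7F OPCs, a log2 change of 2.97 with an SE of 0.45, adjusted p = 0.00112. Every null library was above every control library, and 32.4% of its 31-base words are shared with the predicted gene Gm24208. At DIV2 it stood at 55, 14.6 and 13.8 in control and 63.9, 71.3 and 49.2 in null, overlapping and not called (adjusted p = 0.133). At DIV4 it had dropped to 13.6, 13.6 and 9.25 in control and 9.36, 5.12 and 6.28 in null, where the genotypes again overlapped and the order of the means had turned (log2 change -0.75, adjusted p = 0.38). Within null clones it fell by 4.93 on the log2 scale from OPC to DIV4 (SE 0.45, adjusted p = 5.08e-06), against a fall of 1.21 in control clones that was not called (adjusted p = 0.0521). The difference of those changes was itself called (log2 change of -3.72 with an SE of 0.63, adjusted p = 0.0104), and lost that call without null clone 3F, D6 or 7F (adjusted p up to 0.147).

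Snord22 (U22) and Snord14 (U14) act in processing of the small-subunit ribosomal RNA. Snord22 was 42, 36.5 and 0 in control OPCs and 248, 527 and 486 in null OPCs, without overlap. It rose (log2 change of 5.09 with an SE of 1.36, adjusted p = 0.0276), a call lost without the control E8 OPC library and without any 1 null clone (adjusted p up to 0.191 over all alternatives). At DIV4 Snord22 was 43.7, 15.9 and 0 in control and 246, 92.1 and 215 in null, without overlap but not called (adjusted p = 0.0912). It lies in Snhg1, whose 18 transcripts cover it by an exon in 5. Snord14d lies in the chaperone gene Hspa8, where an exon of 1 of the 10 transcripts overlaps it. Snord14d was 0, 6.5 and 0 in control OPCs and 19, 28.2 and 47.3 in null OPCs (log2 change of 3.96 with an SE of 0.69, adjusted p = 0.00266), and it was listed at 0 in all 6 DIV4 libraries. Its relatives Snord14a, Snord14c and Snord14e did not pass the test in OPCs, with log2 changes of 2.38, 2.30 and 2.11 and adjusted p of 0.136, 0.152 and 0.23.

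Snora73a, Snora73b and Snord13 did not pass the test. Snora73a and Snora73b (U17, or E1) lie in the noncoding host Snhg3 and are needed for cuts in the small-subunit precursor. Snora73a was 555, 1114 and 13.3 in control OPCs and 1118, 1369 and 1953 in null OPCs, with the control E8 library far below the other two. Its log2 change of 2.80 had an SE of 1.13 (adjusted p = 0.122), and Snora73b, at 0 in control E8 OPCs, had an adjusted p of 0.11. Snord13 (U13), which guides acetylation of the small-subunit RNA, was 81.6, 32.7 and 0 in control and 86.5, 300.4 and 225 in null OPCs (log2 change 3.69, SE 1.17, adjusted p = 0.0549).

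**Figure D3:**
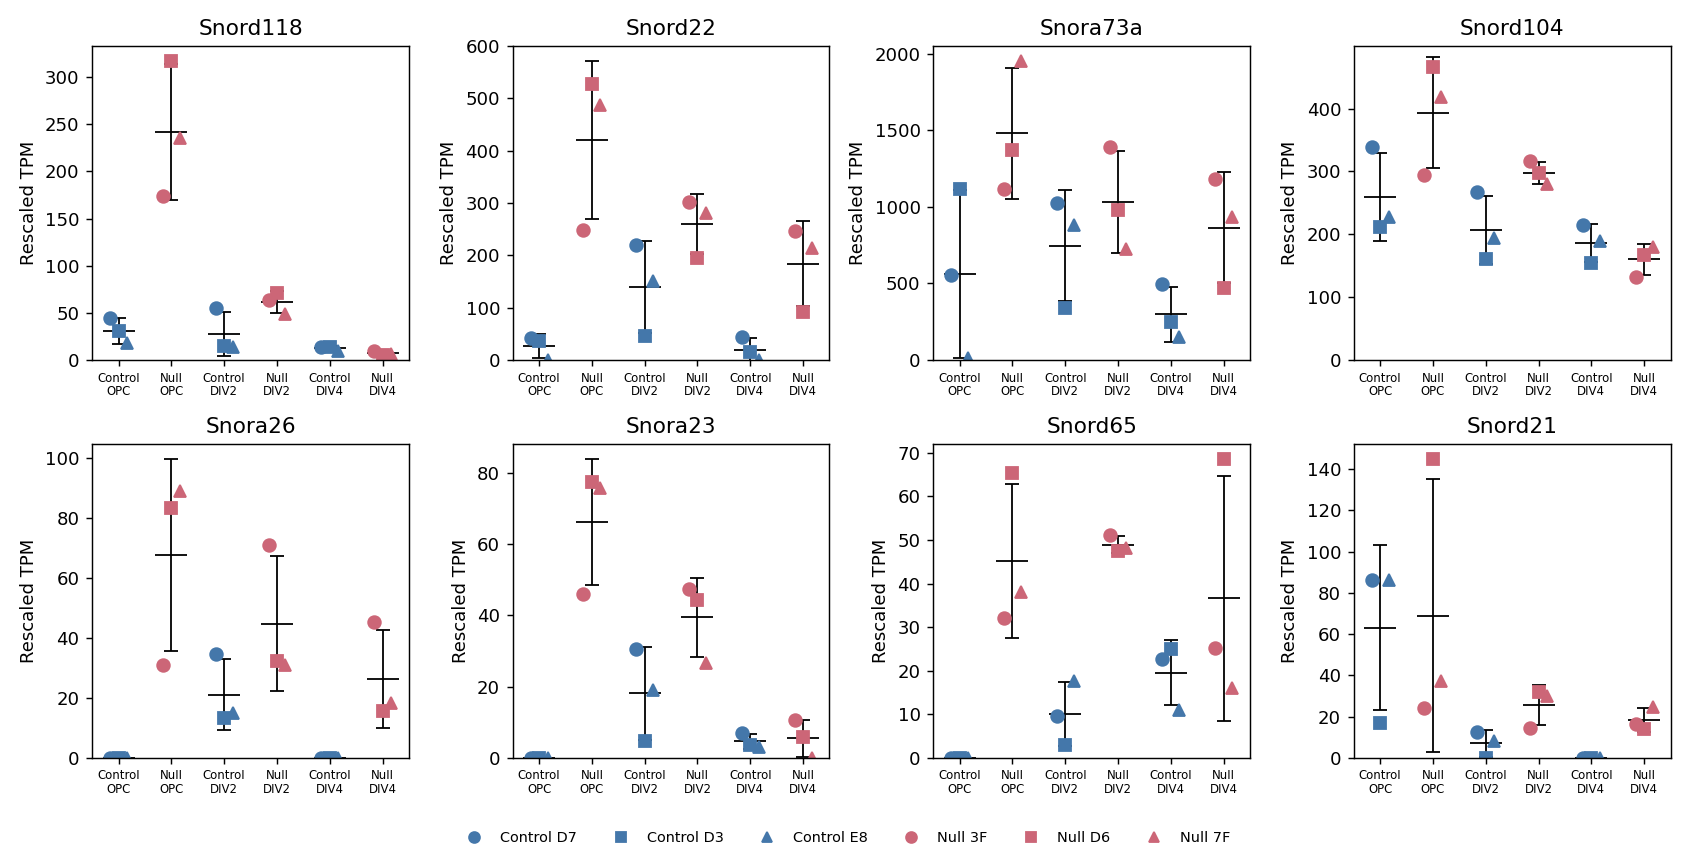
Rescaled TPM of 8 snoRNA genes in each library by group (axes start at 0 and differ between genes), with the mean and SD of 3 clones as a bar. Snord118 is highest in null OPCs and under 14 in every DIV4 library, Snora26, Snora23 and Snord65 lie at 0 in all 3 control OPC libraries, and Snord104 stays between 132 and 466.

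Several modification guides were registered in every null OPC library and in no control OPC library. Snora26 was 30.9, 83.1 and 89 in null OPCs and listed at 0 in the 3 control OPC libraries (adjusted p = 1.74e-06). It was 34.7, 13.4 and 14.9 in control and 70.8, 32.4 and 30.9 in null at DIV2. At DIV4 it was again listed at 0 in all 3 control libraries, with 45.2, 15.6 and 18.2 in null (adjusted p = 4.08e-05). The genotypes thus overlapped at DIV2 and were apart before and after it for this gene, and the DIV2 interaction was called (adjusted p = 0.00359, lost without null clone 7F). Snora52 was 21.4, 35.1 and 42 in null OPCs and 25.6, 24.3 and 11.4 in null DIV2 libraries, and it was listed at 0 in all 9 control libraries and in the 3 null DIV4 libraries. Snora26 and Snora52 both overlap annotated host exons and share 100% of their 31-base words with host transcripts.

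Snora23 and Snord65 share no 31-base words with other genes, which makes them the plainer cases. Snora23 was 45.9, 77.3 and 75.6 in null OPCs and 0 in control OPCs (adjusted p = 0.000178). It was 30.5, 4.66 and 19 in control and 47.4, 44.2 and 26.7 in null at DIV2, and 7.05, 3.67 and 3.02 and 10.5, 5.77 and 0 at DIV4, where the genotypes overlapped. Snord65 was 32.1, 65.4 and 38.1 in null OPCs and 0 in control OPCs (adjusted p = 1.85e-05). At DIV2 it stood at 9.54, 3 and 17.6 in control and 51.1, 47.6 and 48.2 in null (log2 change of 2.44 with an SE of 0.53, adjusted p = 0.0224), a call lost under 7 of 16 alternatives, and at DIV4 at 22.8, 25 and 10.9 and 25.1, 68.7 and 16 with overlap. Snora81, in the translation factor gene Eif4a2, was 30.1, 41.1 and 40.0 in null OPCs and 0 in control OPCs (adjusted p = 0.000764). Counted by place, 9 of 44 tested genes that are always intronic and 12 of 44 that overlap a host exon were called higher in null OPCs, with median log2 changes of 2.02 and 2.26.

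The most abundant genes shared the direction but few passed the test. All 20 leading genes (10 per class by mean over the 18 libraries) had a positive log2 change in OPCs, from 0.59 to 5.09 (median 1.8). So did 83 of the 93 tested genes, and a ranking mean that includes null OPCs favours genes high there. Of the 20, Snord118, Snord17 and Snord22 were called higher, against 5.95% of all tested genes. Snord17, an intronic gene of Snx5, was 134, 157 and 14.5 in control OPCs and 294, 518 and 557 in null OPCs (log2 change of 2.67 with an SE of 0.71, adjusted p = 0.0265), a call lost without the control E8 OPC library and without null clone 3F, D6 or 7F (adjusted p up to 0.241). Snord104, with 339, 211 and 227 in control and 295, 466 and 419 in null OPCs, overlapped and had a log2 change of 0.61 (SE 0.24, adjusted p = 0.109). Snora7a, which lies in the ribosomal protein gene Rpl32, also overlapped, with 237, 115 and 213 against 167, 398 and 300.1.

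After differentiation fewer genes separated the genotypes. At DIV2 2 of 93 genes were called higher in null (Snora52 and Snord65) and 0 lower, against 1.6% and 1.1% of all tested genes, and 14 had an unadjusted p under 0.05. The median log2 change was 0.58, against 0 over all tested genes. At DIV4 6 of 93 were called higher and 0 lower, against 2.81% and 1.76% of all genes, with a median of 0.52. With factors from the snoRNA genes the DIV4 calls split into 13 higher and 5 lower, against 129 and 4534 of 12877 tested genes. All 6 genes called at DIV4 (Snora26, Snord21, Snora5c, Snord15b, Snora7a and Snora44) share at least 10% of their 31-base words with other genes and overlap a host exon in some transcripts. The groups did not overlap, with null higher, for 41 of the 93 genes in OPCs, 13 at DIV2 and 16 at DIV4, against 13.1%, 14.9% and 14.4% of all tested genes, so the counts at DIV2 and DIV4 were close to the background.

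Of these 6 genes Snord15b, Snora7a and Snora44 are among the 10 most abundant of their class. Snora7a at DIV4 was 27.6, 26.4 and 15.7 in control and 141, 79.2 and 129 in null, without overlap (log2 change of 2.27 with an SE of 0.35, adjusted p = 0.00209). Snora44, in the noncoding host Snhg12, was 11.2, 20.1 and 14.7 in control and 95.9, 54.8 and 66.4 in null (log2 change of 2.16 with an SE of 0.36, adjusted p = 0.00348). Both kept their call under all 16 alternatives. Snord15b, in the ribosomal protein gene Rps3, was 24.5, 9.41 and 14.7 in control and 129.9, 43.5 and 104 in null (log2 change of 2.40 with an SE of 0.60, adjusted p = 0.0366), a call lost without control clone E8 or null clone 3F or 7F. Snord21, in the ribosomal protein gene Rpl5, was at 0 in the 3 control libraries and 16.2, 13.8 and 24.8 in the null ones (adjusted p = 0.0135), a call lost without null clone 3F or 7F.

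Over all stages, with each clone counted once, 14 of 93 genes were called higher in null and 0 lower, against 2.17% and 1.32% of all tested genes. Of these 12 were H/ACA genes, and the C/D genes were Snord65 and Snord14d. Direction was the same at the 3 stages for many: 42 of 93 (45.2%) had a positive change at each, against 23.2% of all tested genes, and 3 (3.23%) a negative change at each, against 19.3%. No gene had non-overlapping groups, with null higher, at all 3 stages, against 2.02% of all tested genes. With factors from the snoRNA genes the all-stage calls were 19 higher and 5 lower, against 176 and 6258 of 12877 tested genes. Leaving out control clone D7 raised the count to 32, and leaving out null clone 3F lowered it to 4. Over all tested genes the calls moved the same way. They were 719 higher and 438 lower of 12482 without D7, and 57 and 38 of 12433 without 3F.

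**Figure D4:**
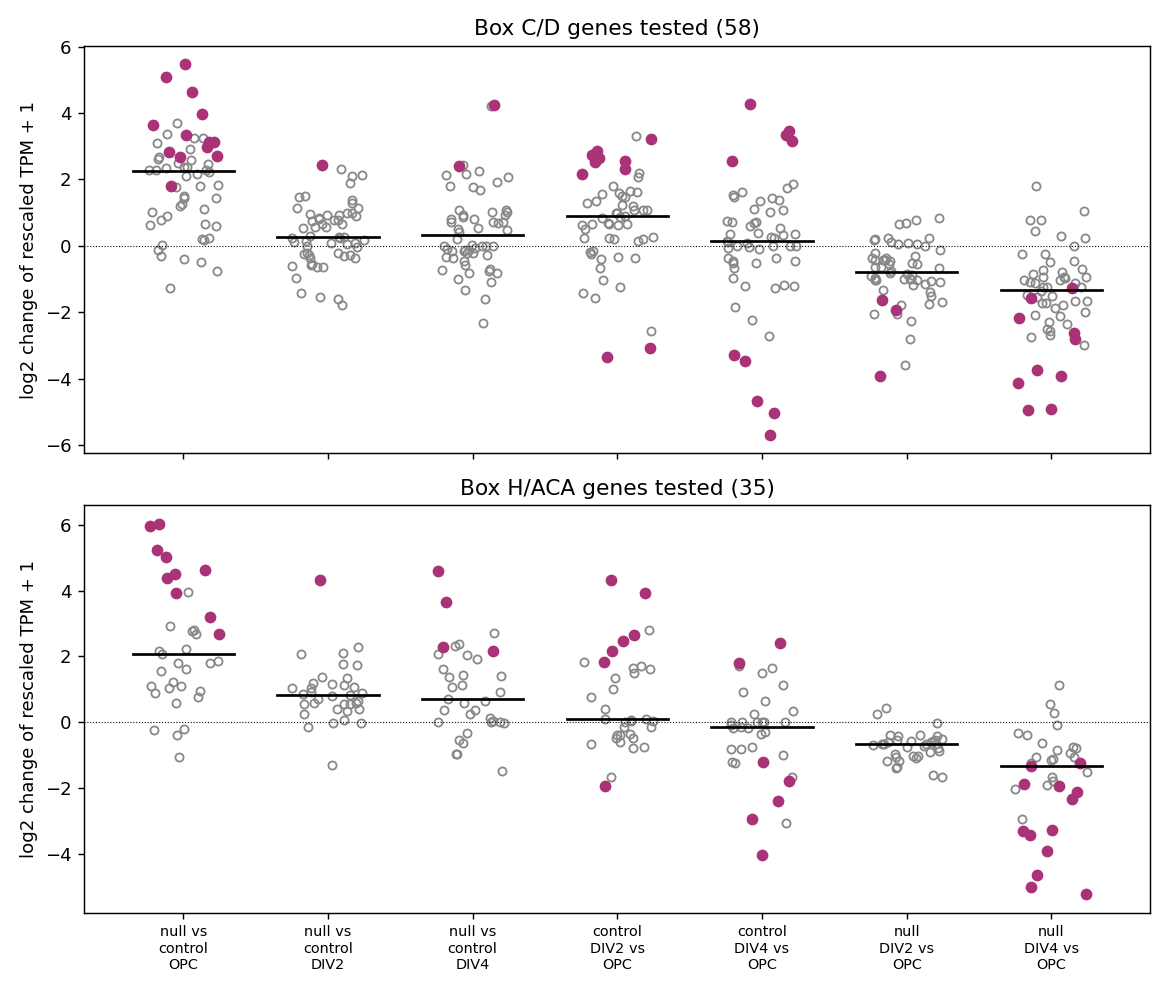
Log2 change of rescaled TPM + 1 for each tested C/D gene (top, 58) and H/ACA gene (bottom, 35) in 7 comparisons. Filled points are called (adjusted p under 0.05), open points are not, and black lines are medians. Calls lie above 0 in the 3 genotype comparisons and below 0 within null clones, and the size of a change against a group at 0 depends on the pseudocount of 1.

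From OPC to DIV4, snoRNA genes fell in null clones and went both ways in control clones. In null clones 23 of 93 fell (10 C/D and 13 H/ACA) and 0 rose, against 15.9% of all tested genes called lower and 17.1% called higher, with a median log2 change of -1.35 against 0.01 over all genes. With factors from the snoRNA genes the split was 4 higher and 12 lower, against 7570 and 276 of 12877 tested genes. Without null clone 7F 9 genes were called, against 1022 higher and 1028 lower of 12490 tested genes. Without D6 10 were called, against 1199 and 1035 of 12481. Of all 111 genes the mean was lower at DIV4 for 88 and higher for 11. In control clones 7 of 93 rose and 10 fell, against 16.6% and 14.8% of all tested genes, shares under the background in both directions. That split was 12 and 7 with protein-coding factors, 20 and 11 with snoRNA factors and 41 and 4 on the deposited scale. Over all tested genes those scales gave 6017 and 395 of 12514, 7351 and 153 of 12877, and 11335 and 29 of 12894. Without the control E8 OPC library the snoRNA split was 3 and 14, against 1601 and 1571 of 12392 tested genes. Marker genes of other cells differed between these stages too. In null clones the summed level of 4 astrocyte markers was 9.65 to 13.4 in OPCs and 91.1 to 149 at DIV4, and that of 6 oligodendrocyte markers 197 to 291 and 1021 to 1477. In control clones the astrocyte sums were 9.51 to 29.1 and 2.62 to 323, and the oligodendrocyte sums 42.7 to 424 and 1105 to 6652. Their part in the result was not tested. The control and null comparisons with OPC have no libraries in common.

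Genes that fell in null clones included Snord118, Snord14d and Snord14e among the cleavage snoRNAs, Snord17 and Snord104 among the most abundant, and Snord33 from the Rpl13a introns. Snord104 in null clones went from 295, 466 and 419 in OPCs to 132, 167 and 180.4 at DIV4 (log2 change of -1.28 with an SE of 0.24, adjusted p = 0.000906). With snoRNA factors its change was 0.079 and not called, and the call was also lost on the deposited scale and with quantile normalization. The fall of Snord17 was not called with snoRNA factors or without null clone 3F, D6 or 7F, and that of Snord14e was not called without D6 or 7F. Snora81, Snora52, Snord14d and Snora70 were registered in all null OPC libraries and listed at 0 in all 3 null DIV4 libraries (adjusted p from 4.01e-08 to 0.00027). In the earlier step, OPC to DIV2, 3 genes fell in null clones (Snord82, Snord118 and Snord100) and 0 rose, against 12.6% and 14.8% of all genes, so the count was under the background.

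In control clones the genes that fell were partly abundant ones in ribosomal protein hosts. Snora7a went from 237, 115 and 213 in control OPCs to 27.6, 26.4 and 15.7 at DIV4 (log2 change of -2.94 with an SE of 0.35, adjusted p = 9.37e-05). Snord15b went from 196, 102 and 272 to 24.5, 9.41 and 14.7 (log2 change of -3.46 with an SE of 0.60, adjusted p = 0.00095). Neither fall was called on the deposited scale (adjusted p of 0.524 and 0.141). Snord21, listed at 0 at DIV4, was 86.3, 16.9 and 86.1 in control OPCs, and Snord110, in the snoRNA-protein gene Nop56 and also at 0 at DIV4, was 35, 24.8 and 37.9. Snord32a was 54.1, 20.4 and 60.7 in control OPCs and 0, 0 and 3.27 at DIV4 (log2 change of -4.68 with an SE of 0.95, adjusted p = 0.0024). Among the 7 that rose, Snord65, Snord7 and Snora23 were at 0 in every control OPC library. From OPC to DIV2 15 genes rose and 3 fell in control clones, against 19.2% and 15.4% of all genes. On the deposited scale 65 rose and 0 fell, against 10713 and 72 of 12894 tested genes. With rescaled values but without the control E8 OPC library the counts were 9 and 2, against 1903 and 1666 of 12392 tested genes.

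Snord32a, Snord33, Snord34 and Snord35a come from the introns of Rpl13a, a ribosomal protein gene whose snoRNAs have been linked to the response of cells to excess lipid. They did not move as a unit. In OPCs none of the 4 was called between genotypes: the log2 changes were -0.49 for Snord32a, 3.37 for Snord33, 1.25 for Snord34 and 1.82 for Snord35a, with adjusted p from 0.115 to 0.778. Snord34 was registered in 3 of the 18 libraries only. Snord32a fell in control clones as given above, with a change of -2.50 in null clones that was not called (adjusted p = 0.0556). Snord33 was 21.7, 66.5 and 9.29 in null OPCs and 3.54, 0 and 0 in null DIV4 libraries (log2 change of -3.92 with an SE of 1.33, adjusted p = 0.0351), a call lost without null clone 3F, D6 or 7F, while its control change was not called (adjusted p = 0.495). Snord35a was called in neither.

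Snord64 and Snord107 come from the imprinted Snrpn locus, which is transcribed from the paternal chromosome. Snord64 was 52.5, 40.7 and 41 in control OPCs and 29.2, 99.9 and 114 in null OPCs, overlapping (log2 change 0.64, adjusted p = 0.463). At DIV4 it was 142, 65 and 29.1 in control and 43, 21.4 and 36.1 in null, with a negative log2 change that was not called (-0.99, adjusted p = 0.328). Snord107 was lower and ranged from 0 to 37.9, with no call in any genotype comparison. Other snoRNAs of that locus and those of the Dlk1 locus were not analysed here.

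The change over stages differed between genotypes for 11 gene and stage pairs by the interaction test, all with a more negative change in null clones. At DIV2 1 of 93 genes (Snora26) was called, against 0.201% of all tested genes called lower and 0.176% called higher, and 20 had an unadjusted p under 0.05. At DIV4 10 of 93 were called lower and 0 higher, against 1.18% and 1.25%. With snoRNA factors the DIV4 split was 2 higher and 4 lower, with quantile normalization 2 and 10, and without null clone 3F 2 genes were called. Over all tested genes the splits were 15 and 33 of 12877 with snoRNA factors and 334 and 179 of 12730 with quantile normalization. Without 3F the split over all tested genes was 7 and 15 of 12433. The 10 were Snora23, Snora31, Snora52, Snora70, Snora81, Snord7, Snord14d, Snord53, Snord65 and Snord118. In 7 of them at least 1 of the groups involved was listed at 0 throughout. Snora23, Snora52, Snora70, Snora81, Snord7 and Snord65 were at 0 in every control OPC library, as was Snora26. Their control change could not be negative, so the shared direction is not separate from those OPC zeros. For Snord14d, at 0 in every DIV4 library, the interaction is its OPC difference with the sign turned. Snora52 was called under all 16 alternatives. It was at 0 in every control library, so its interaction equals its null change of -5.03. Its groups at 0 add no spread to the SE, so this stability partly follows from the zeros.

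Of 63 tested host genes, 9 were called higher in null OPCs and 1 lower, against 5.95% and 5.25% of all tested genes. The median log2 change was 0.21 over hosts and 2.26 over the 80 tested snoRNA genes paired with them. In 5 of the 21 called pairs the host was called in the same direction. Across the 80 pairs the changes correlated weakly (Spearman's rho = 0.281, as a description over genes of the same libraries, several of which share a host). From OPC to DIV4 in null clones 31 of 63 hosts fell and 0 rose (median -0.63), against 15.9% and 17.1% of all tested genes, and 13 of the 18 snoRNA genes called lower had a host called lower. In control clones 30 hosts fell and 2 rose (median -0.53), against 14.8% and 16.6%, with a host called in the same direction for 4 of 16 called snoRNA genes.

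**Figure D5:**
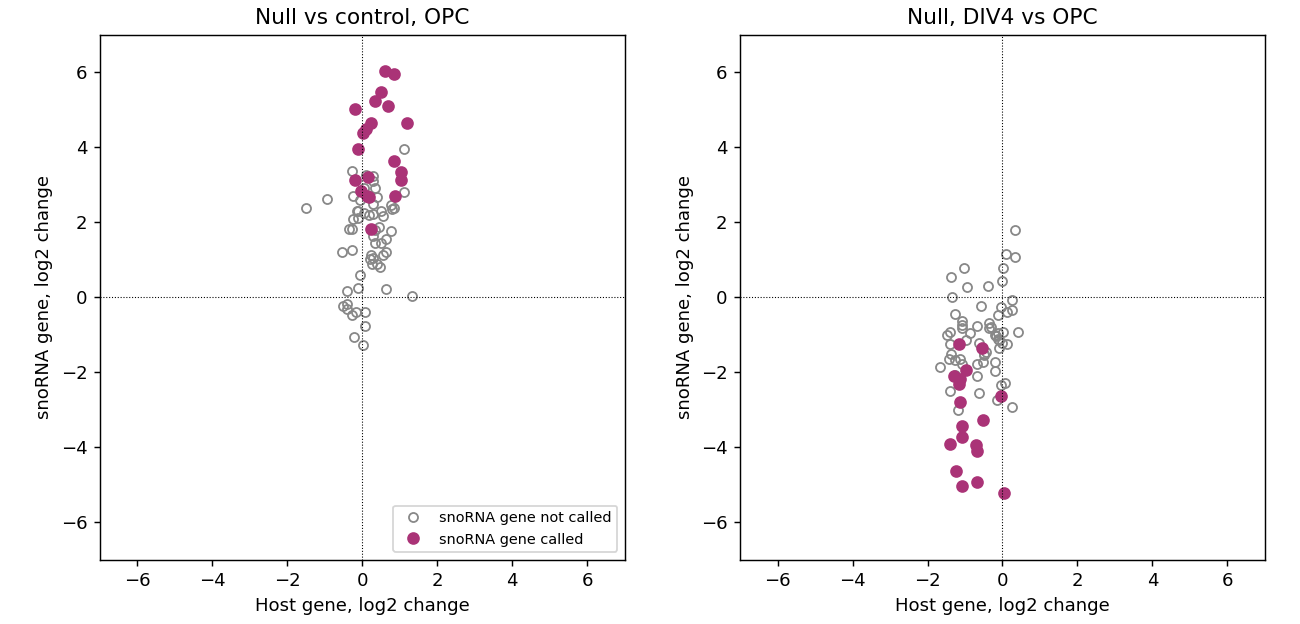
Log2 change of each tested snoRNA gene against that of its host gene for null against control in OPCs (left) and for DIV4 against OPC in null clones (right), 80 pairs each, on equal axes. In OPCs the snoRNA changes (median 2.26) spread well beyond those of the hosts (median 0.21), and in null clones both lie mostly below 0.

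Genes for snoRNA proteins, their assembly and ribosomal RNA transcription (26 genes, 25 tested) were compared in the same way. In OPCs 0 of 25 were called higher and 2 lower in null, against 5.95% and 5.25% of all genes. These were Nolc1, a nucleolar chaperone of snoRNA particles (log2 change -0.60, adjusted p = 0.043), and Ubtf, an RNA polymerase I factor (-0.50, adjusted p = 0.00821). At DIV4 0 were called lower and 2 higher, against 1.76% and 2.81% of all genes: Polr1a, the largest subunit of RNA polymerase I (0.53, adjusted p = 0.0352), and Ubtf (0.55, adjusted p = 0.00910). From OPC to DIV4 18 of 25 fell and 0 rose in control clones (median -0.61), against 14.8% and 16.6% of all genes. In null clones 13 fell and 1, Ubtf, rose (median -0.63), against 15.9% and 17.1%. Fbl, the methyltransferase of C/D particles, and Dkc1, the pseudouridine synthase of H/ACA particles, fell in clones of both genotypes. The log2 changes of Fbl were -1.34 in control (adjusted p = 0.00138) and -1.05 in null clones (adjusted p = 0.00503). Those of Dkc1 were -1.43 in control (adjusted p = 0.000678) and -1.08 in null clones (adjusted p = 0.00298). Neither differed between genotypes in OPCs (log2 changes of 0.09 and 0.08).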

How the data were processed

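RNA abundance in 18 libraries of clonal mouse OPCs was taken from 1 deposited table of TPM with 93666 transcripts, in which each library sums to the same total. The processing notes of the submitters name mm10, STAR and Picard, without versions or roles, and the quantifier is not given in the sources used here. Per the labels' protocols, libraries were made with a stranded total RNA kit that removes ribosomal RNA.

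The authors' TPM values were summed by gene name after 150 names turned into dates had been restored from transcript identifiers. They were divided by median-of-ratios factors from 14669 genes above 0 in all libraries, snoRNA names left out. This assumes that most genes do not change. Genes with a mean of at least 1 rescaled TPM (12468) entered a fit of log2(rescaled TPM + 1) in limma 3.58.1 (R 4.3.3), with 1 mean per group, a shared spread over all 18 libraries and eBayes with a mean trend. For all stages together, each clone entered as 1 mean. Benjamini-Hochberg adjustment was applied to each of the 10 comparisons on its own, and changes understate those of low genes. TPM keeps no depth, so precision rests on 3 clones per group. A group listed at 0 throughout adds no spread to the fit, which can lower the SE and p of its gene. The script was tested on simulated data.

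The same clones were sampled at each stage, so clone pairs the stages: deviations from the group mean correlated with a mean r of 0.118 (from -0.01 to 0.424) over 18 same-clone pairs and -0.06 over pairs of different clones. Clone was a replicate block in an alternative.

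Annotation, hosts (shortest gene on the same strand that contains the snoRNA) and sequences came from GENCODE M21, which holds 96.6% of the transcripts and all 111 snoRNA transcripts, 110 of them at the deposited length. That release may not be the authors'. Other alternatives were the deposited scale, protein-coding, snoRNA-based and quantile scaling, a pseudocount of 0.1, no minimum, a minimum of 5, only the libraries compared and leaving out each clone. Leaving out the control E8 OPC library and leaving out genes sharing at least 10% of 31-base words were chosen after seeing the data.

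The genes named were the cleavage, imprinted-locus and Rpl13a snoRNAs, the 10 most abundant per class and up to 5 called genes per direction and comparison. Members and lists were chosen with earlier results of these data known. Python 3.11.15 with pandas 2.3.3 and matplotlib 3.10.9 was used for tables and plots. Names in capitals (7 genes) and 1240 unnamed snoRNA transcripts (names starting Gm) were not members.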

Additional observations from a re-analysis of the deposited data

Results flagged for a closer look

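For 11 gene and stage pairs the change from OPC differed between null and control clones by the interaction term of limma, with a more negative change in null clones in each. At DIV2 this was Snora26 (adjusted p = 0.00359). At DIV4 these were Snora52 (adjusted p = 7.1e-06), Snord65 (adjusted p = 0.00753), Snora23 (adjusted p = 0.00821) and Snord118 (adjusted p = 0.0104). They were followed by Snora81 (adjusted p = 0.0141), Snord7 (adjusted p = 0.0217), Snora70 (adjusted p = 0.0326), Snord53 (adjusted p = 0.0361), Snora31 (adjusted p = 0.0427) and Snord14d (adjusted p = 0.0479). The 11 are 1 gene at DIV2 and 10 genes at DIV4, against 0.201% and 1.18% of all tested genes called lower. Snord118, Snord53 and Snora31 had no group listed at 0 throughout. All the others except Snord14d were at 0 in every control OPC library, so their control change could not be negative. Of 16 alternatives, the DIV4 call was lost under 11 for Snord14d, 10 for Snord53, 8 for Snora31, 7 for Snora70 and 5 each for Snora81 and Snord7. It was lost under 3 for Snord118, 2 for Snord65, 1 for Snora23 and 0 for Snora52, and the DIV2 call of Snora26 was lost under 1. With the clone as a block Snord14d lost its DIV4 call, and its values are uncertain because it shares 31-base words with Snord14c and Hspa8.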

How the results depend on the processing

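Of 1198 alternative values for the 76 gene and comparison pairs named as called, 948 stayed called in the same direction, 244 lost the call and 6 turned; 27 pairs stayed called under each alternative. The turned values were, on the deposited scale, Snora47 in control DIV2 (0.25) and Snora44, Snora68 and Snora74a in control DIV4 (1.37, 0.82 and 0.32), and with snoRNA factors Snora7a and Snord104 in null DIV4 (0.099 and 0.079). In what follows genotype counts are given for OPC, DIV2, DIV4 and all stages, and the cause of each shift was not tested. The fit with clone as a replicate block called 22, 2 and 6 genes between genotypes in OPC, DIV2 and DIV4. It called 19 and 23 in control DIV2 and DIV4, 4 and 25 in null DIV2 and DIV4, and 1 and 12 in the interactions. Of 12468 tested genes it called 773 higher and 672 lower in OPC, 210 and 144 at DIV2, and 379 and 223 at DIV4. In control clones these were 2654 and 2128 at DIV2 and 2353 and 2041 at DIV4. In null clones they were 2070 and 1743 at DIV2 and 2403 and 2175 at DIV4. The interactions held 40 and 29 at DIV2 and 271 and 208 at DIV4. Among named pairs the clone block ended only the calls of Snord14d in control DIV2 and in the DIV4 interaction.

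On the deposited scale 74 genes were called between genotypes in OPC, 58 over all stages, 65 and 45 in control DIV2 and DIV4, and 57 and 46 in the DIV2 and DIV4 interactions. Of all 12894 genes tested on that scale, 10407 were called higher in OPC, 2902 over all stages, and 10713 and 11335 in control DIV2 and DIV4. In its interactions 9331 and 9443 of all genes were called lower, so most of the table moved on this scale. There the median of all tested genes moved from 0.06 to 1.5 in OPC and to 2.02 in control DIV4. Protein-coding factors gave 45 in OPC and 5 in the DIV2 interaction, with an all-gene median of 0.37 in OPC. Of 12514 genes tested with them, 2646 were called higher and 189 lower in OPC, and 31 and 242 in the DIV2 interaction. With snoRNA factors, where that median was -0.81 in OPC, the counts were 1 at DIV2, 18 at DIV4, 24 over all stages, 31 in control DIV4 and 6 in the DIV4 interaction. Of 12877 genes tested with snoRNA factors, 52 were called higher and 287 lower at DIV2. Quantile normalization gave 5 in null DIV2 and 2 in the DIV2 interaction, and the pseudocount of 0.1 gave 3 in that interaction. Of 12730 genes tested after quantile normalization, 1964 were called higher and 1527 lower in null DIV2, and 27 and 22 in that interaction. With the pseudocount of 0.1 the interaction held 12 and 25 of 12468. Without a minimum there were 1 at DIV2, 4 over all stages, 9 and 10 in control DIV2 and DIV4 and 6 in the DIV4 interaction. Of 30396 genes tested without it, 178 were called higher and 131 lower at DIV2, and 152 and 87 over all stages. Control DIV2 gave 2352 and 1866, control DIV4 2161 and 1641, and the DIV4 interaction 147 and 155. With only the libraries compared there were 14 in OPC, 1 at DIV2 and 8 in each control stage. There were 20 and 37 in null DIV2 and DIV4, and 3 and 6 in the interactions. Of 12468 tested genes these fits called 166 higher and 70 lower in OPC and 170 and 150 at DIV2. They called 1216 and 795 in control DIV2, 137 and 64 in control DIV4, and 2206 and 2006 in null DIV2. Null DIV4 gave 2762 and 2472, and the interactions 16 and 28 at DIV2 and 27 and 43 at DIV4. Without the control E8 OPC library control DIV2 gave 11 and null DIV2 5. Of 12392 genes tested then, 1903 were called higher and 1666 lower in control DIV2, and 2034 and 1747 in null DIV2. Of the 93 tested snoRNA genes, 39 share under 10% of their 31-base words. These 39 held 10 of the 23 OPC calls, and their median log2 change in OPC was 2.18, as over all 93. They held 1 call at DIV2, 0 at DIV4, 2 over all stages and 10 in control DIV4. They also held 1 and 6 in null DIV2 and DIV4, and 0 and 5 in the interactions.

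Leaving out each clone gave 13 to 39 calls in OPC, 1 to 6 at DIV2, 3 to 11 at DIV4, 4 to 32 over all stages, 6 to 22 in control DIV2, 11 to 25 in control DIV4, 0 to 8 in null DIV2, 9 to 30 in null DIV4, 0 to 8 in the DIV2 interaction and 2 to 17 in the DIV4 interaction. Of 12386 to 12490 tested genes, 150 to 1240 were called higher and 127 to 1009 lower in OPC. DIV2 gave 66 to 353 and 38 to 241, and DIV4 61 to 524 and 53 to 485. All stages gave 55 to 719 and 33 to 438. Control DIV2 and DIV4 gave 1403 to 2708 and 1174 to 1979, and 1260 to 2462 and 922 to 1932. Null DIV2 and DIV4 gave 699 to 2140 and 695 to 1883, and 1022 to 2517 and 1028 to 2239. The interactions gave 5 to 97 and 7 to 129, and 4 to 442 and 10 to 606.

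The log2 difference of the class totals between genotypes in OPC was 3.48 (C/D) and 3.61 (H/ACA) on the deposited scale and 0.21 and 0.34 with snoRNA factors. With those factors it was -0.088 and 0.024 at DIV2, and -0.43 and 0.72 at DIV4. For control DIV4 against OPC it was 2.11 and 1.56 on the deposited scale, 0.065 and -0.49 with protein-coding factors and 0.46 and -0.0929 with snoRNA factors. For null DIV4 against OPC the C/D difference was -1.09, -1.16, -0.18 and -1.03 on the deposited, protein-coding, snoRNA and quantile scales, and the H/ACA difference was 0.29 and -0.18 on the last 2. Without depth, a gene at 0 cannot be told from one too low to register. For C/D genes the lowest rescaled value above 0 was higher in control OPC libraries (6.5 to 14.5) than in the other 15 (1.84 to 4.82). For H/ACA genes these ranges overlapped (3.85 to 8.79 and 0.996 to 8.06).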
